A study of Mus musculus with 10 samples.

Results

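The genes described here encode cytosolic heat shock proteins, the chaperones that bind unfolded proteins in the cytosol and nucleus. They were taken as a list of 10 genes, and every probe set of the array whose platform symbol is one of them was included. Of the 10 genes, 9 had a probe set, with 11 probe sets among the 12488 of the array, while Hsp90ab1, the constitutive cytosolic Hsp90 gene, was not analysed here. After the dimmest 30% of probe sets had been left out, 8 member probe sets of 8 genes were among the 8695 tested. Each of these 8 lay above the signal of the filter, 42.9, on every array, so none passed through 1 group alone.

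RNA from the cochleae of female mice aged 10 weeks was measured on 10 one-colour arrays, each with a pool of 8 mice, and the arrays of a group were biological replicates per the labels. The strains were 129X1/SvJ, which resists noise damage per the labels, and B6.CAST, known as a congenic C57BL/6J line that carries CAST sequence at Cdh23. Noise was an octave band at 10 kHz, given at 105 dB SPL over 1 h to the mice of 3 arrays of 129X1/SvJ and 2 of B6.CAST, and cochleae were taken 6 h after it. Control mice (3 and 2 arrays) had a sham exposure in the chamber, so that handling was shared by all 4 groups. The titles of 1 control and 1 noise array read 129XI/SvJ, which was taken as 129X1/SvJ.

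Values are deposited linear signal intensities. Changes and standard errors are on the scale of log2(intensity + 16) after quantile normalization, from 1 limma fit of the 4 group means, with Benjamini-Hochberg adjustment over all 8695 probe sets. A change passed, or was called, at an adjusted p under 0.05, which weighs it against the spread between pools of mice.

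Chaperones of the Hsp70 family grip short stretches of unfolded protein in a cycle driven by ATP. J-domain proteins such as Dnajb1 and Dnaja1 deliver the client and start hydrolysis, and Hsp110 proteins such as Hsph1 release the spent nucleotide. Hsp90 proteins act later, on nearly folded clients such as kinases and steroid receptors, while small heat shock proteins such as Hspb1 and Cryab hold unfolded proteins without ATP. When unfolded protein builds up, the transcription factor HSF1 binds heat shock elements, arrays of inverted GAA units, and raises the inducible genes, whereas Hspa8, Dnaja1 and Hsp90ab1 are made steadily in unstressed cells. In the cochlea, inducible Hsp70 is known to be made after loud sound or heat.

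The promoters of 6 members were in the RefSeq table (GRCm38.p6), and Hspa8, Hsp90aa1, Hsp90ab1 and Cryab had no entry. Each window spans 250 bases before to 50 after a transcription start. The Hspa1a and Hspa1b windows are shown because these neighbouring genes are nearly the same in sequence and had the largest changes with noise. The Hsph1 window is shown as the member with a longer element and the Dnaja1 window as a constitutive gene that also holds an element. Capitals mark heat shock elements of 2 units, that is GAANNTTC or TTCNNGAA on either strand.
Hspa1a (chr17:34972107-34972406, minus strand): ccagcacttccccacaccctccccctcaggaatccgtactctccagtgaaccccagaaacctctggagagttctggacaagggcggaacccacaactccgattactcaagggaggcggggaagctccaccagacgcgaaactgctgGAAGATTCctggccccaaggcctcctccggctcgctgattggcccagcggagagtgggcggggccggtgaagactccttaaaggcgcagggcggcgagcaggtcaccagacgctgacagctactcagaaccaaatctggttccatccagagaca
Hspa1b (chr17:34959189-34959488, minus strand): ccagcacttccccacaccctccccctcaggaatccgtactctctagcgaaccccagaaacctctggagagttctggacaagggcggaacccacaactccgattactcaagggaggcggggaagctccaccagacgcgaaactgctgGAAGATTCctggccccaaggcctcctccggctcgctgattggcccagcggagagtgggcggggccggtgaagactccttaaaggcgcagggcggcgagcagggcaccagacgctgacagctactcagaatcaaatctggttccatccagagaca
Hsph1 (chr5:149636266-149636565, minus strand): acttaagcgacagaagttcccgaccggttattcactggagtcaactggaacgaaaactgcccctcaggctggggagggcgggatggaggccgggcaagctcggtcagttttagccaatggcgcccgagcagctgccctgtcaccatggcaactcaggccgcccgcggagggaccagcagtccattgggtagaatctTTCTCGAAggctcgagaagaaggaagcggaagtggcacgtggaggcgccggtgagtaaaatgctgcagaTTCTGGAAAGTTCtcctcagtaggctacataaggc
Dnaja1 (chr4:40722218-40722517, plus strand): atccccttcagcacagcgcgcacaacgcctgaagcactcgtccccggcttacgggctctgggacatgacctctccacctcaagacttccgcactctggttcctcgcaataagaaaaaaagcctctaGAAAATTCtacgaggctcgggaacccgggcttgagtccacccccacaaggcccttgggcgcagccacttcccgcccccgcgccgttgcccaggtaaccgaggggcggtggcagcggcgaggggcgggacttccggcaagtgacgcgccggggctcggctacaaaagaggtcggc

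The Hspa1a and Hspa1b windows were equal at 296 of 300 positions, and both held 1 element, GAAGATTC, from base -104 to -97 relative to the start. The 4 substitutions from Hspa1a to Hspa1b, counted from 1 at the 5′ end of the window, were C44T, T47C, T249G and C276T, and none lay in the element. Hsph1 held 3 matches in each of its 2 windows, of which 2 overlapped to form an element of 3 units, TTCTGGAAAGTTC, just after the start. Dnaja1 held 1 match, GAAAATTC, in the window of its upstream start and none in its other 2 windows. Hspb1 held 2 matches and Dnajb1 held none in either of its 2 windows. In all, 5 of the 6 genes had an element of 2 units in at least 1 window, and 6 of the 10 member windows held it. These windows are not separate cases, since those of Hspa1a and Hspa1b are nearly equal and those of Hsph1 overlap. Of all 32851 windows in the table, 15.1% held an element of 2 units and 0.603% held 1 of 3 units, the same letters run on by NN and a further unit, which contains the shorter motif. The TATA box TATAAA was in 13.6% of all windows and in no member window. A match describes these letters alone and does not show that a factor was bound.

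The arrays were not of equal quality. In 129X1/SvJ, noise array 1 correlated least with the others (mean r = 0.910, other arrays 0.943 to 0.955). Gapdh is read by control probe sets at both ends of its transcript, and a high ratio of the 3′ to the 5′ signal is used as a sign of shortened RNA. This ratio reached 29.2 on control array 2 of 129X1/SvJ and 6.94 on noise array 1 of B6.CAST, while no other array exceeded 1.40. Of 24 cochlear markers, 18 were on the array, among them Coch, an abundant protein of the spiral ligament, at 12604 or more on every array. The hair cell factor Atoh1 (at most 15.0) and the melanocyte gene Tyrp1 (at most 43.4) were dim. In bulk RNA of this kind, fewer cells of a type and less RNA per cell cannot be told apart.

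Noise raised the inducible Hsp70 gene Hspa1a in 129X1/SvJ. Its signal was 784.8, 835.4 and 790.0 on the control arrays and 2121.5, 2189.4 and 2067.8 on the noise arrays of that strain. The noise arrays lay far above the control arrays, and within each group the values were close together. The log2 change was 1.42 ± 0.15 (SE; n = 3 per group), or 2.67-fold, with adjusted p = 0.00149. By p-value it ranked 8 of 8695 probe sets, of which 0.506% were called in either direction and 0.460% as higher. Leaving out any 1 of the 10 arrays gave changes of 1.40 to 1.45, all of which passed.

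Hspa1b, the neighbouring inducible Hsp70 gene, had the next largest change but did not pass. Its signal was 657.1, 586.7 and 370.1 on control arrays of 129X1/SvJ and 954.4, 1038.7 and 1202.8 with noise, without overlap. The change was 1.03 ± 0.21 (adjusted p = 0.0638). Control 3 was the lowest array of all, and without it the change was 0.81. With array weights the change was 0.98 and passed (adjusted p = 0.0376). The coding sequences of Hspa1a and Hspa1b are nearly identical, so each probe set may detect transcripts of both genes and the signal cannot be assigned to 1 of them with certainty.

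Hspa8, the constitutive Hsp70 of the cytosol, was bright in all groups and had the sole negative change among the tested members in 129X1/SvJ. It gave 5748.2, 5463.7 and 4157.8 without noise and 3843.1, 4324.6 and 5057.6 with noise. The groups overlapped, and the change was -0.20 ± 0.18 (adjusted p = 0.663; 95% interval -0.59 to 0.19). This interval does not reach the estimates of Hspa1a or Hspa1b.

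The partners of Hsp70 had smaller changes. Hsph1, the Hsp110 exchange factor, was at 2941.0, 2753.2 and 2757.5 on control arrays and at 3106.3, 3670.6 and 3600.3 on noise arrays of 129X1/SvJ. These groups did not overlap, yet the change of 0.31 ± 0.11 did not pass (adjusted p = 0.379). Dnaja1, a constitutive J-domain protein, was at 3661.3, 2493.4 and 2768.3 and at 4068.7, 4103.5 and 3356.3. The first control array lay within the noise range, and the change was 0.39 ± 0.17 (adjusted p = 0.416). Dnajb1, the J-domain partner of inducible Hsp70, lay between 624.2 and 708.3 on control and between 615.3 and 748.9 on noise arrays, at 0.08 ± 0.15 (adjusted p = 0.852; 95% interval -0.25 to 0.41).

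Hsp90aa1, the inducible Hsp90 gene, had the highest signal among the members' probe sets, at 8997.6, 6099.4 and 6680.8 on control and 12552.9, 8909.7 and 7566.5 on noise arrays of 129X1/SvJ. The highest value came from the first noise array, which stood apart on all probe sets, and the groups overlapped. The change was 0.36 ± 0.17 (adjusted p = 0.438), with a range of 0.19 to 0.52 on leaving out any 1 array. Cryab, the small heat shock protein alpha-B crystallin, was at 869.6, 833.7 and 588.5 on control and 748.5, 793.6 and 903.1 on noise arrays. Its change of 0.14 ± 0.18 was smaller than its standard error (adjusted p = 0.777). The probe set of Cryab is of a class that may match related sequences.

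Over the 8 tested members in 129X1/SvJ, 7 had a positive change, against 45.0% of all probe sets, and 1 passed, Hspa1a. The median was 0.33 for the 6 inducible members, all positive, and the 2 constitutive members were at -0.20 and 0.39, against a median of -0.04 over all probe sets. The inducible and constitutive genes thus overlapped in their changes, with Dnaja1 above 4 of the 6 inducible members. The place of Dnaja1 depended on the arrays with raised Gapdh ratios. Without them it was at 0.266, below Hsph1 (0.287) and Hsp90aa1 (0.281) but still above Cryab (0.205) and Dnajb1 (0.055). The noise and control groups did not overlap for 3 members (Hspa1a, Hspa1b and Hsph1), all higher with noise, as was so for 6.35% of all probe sets, and no member was lower without overlap (9.63% of all). An unadjusted p under 0.05 was found for 4 members, against 11.5% of all.

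**Figure D1:**
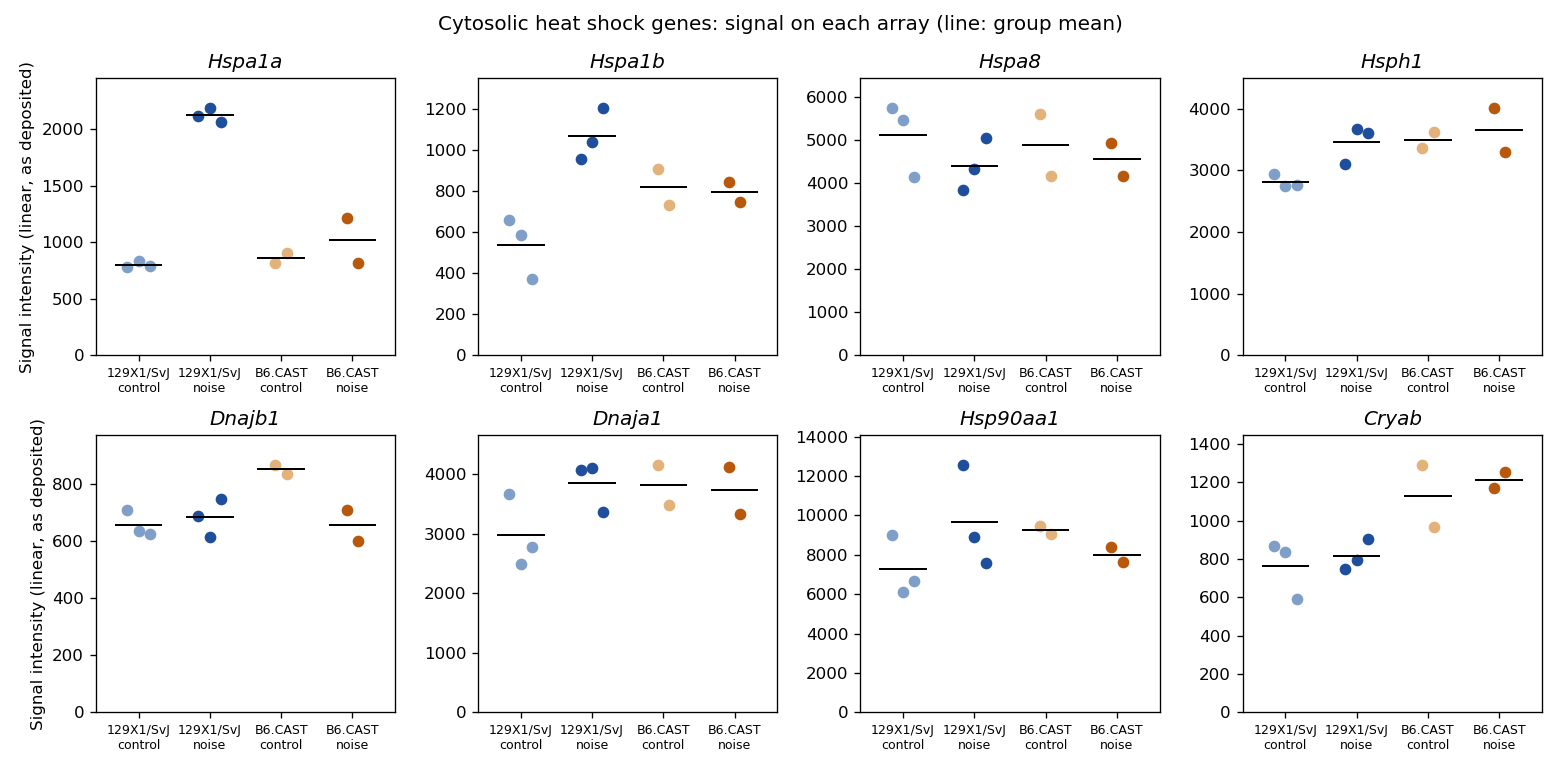
Deposited linear signal intensity of the 8 tested heat shock probe sets on each of the 10 arrays (points), by strain and noise group, with the group mean as a line and each vertical axis starting at 0. The 3 noise arrays of 129X1/SvJ lie at 2067.8 or above for Hspa1a, while every other array lies at 1217.7 or below.

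In B6.CAST no member passed, and 0.0460% of all probe sets did. Hspa1a was at 813.8 and 904.8 on control arrays and at 1217.7 and 819.5 on noise arrays. The second noise array fell within the control range, and the higher value came from the noise array with the Gapdh ratio of 6.94. The change was 0.20 ± 0.19 (SE, n = 2 noise and 2 control arrays; adjusted p = 1; 95% interval -0.21 to 0.62). It was -0.06 without the first noise array and 0.47 without the second.

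Hspa1b gave 908.4 and 733.4 on control and 842.1 and 744.7 on noise arrays, with overlap and a change of -0.05 ± 0.25 (adjusted p = 1). Hsph1 (0.07 ± 0.14), Cryab (0.10 ± 0.22), Dnaja1 (-0.03 ± 0.20) and Hspa8 (-0.10 ± 0.22) had overlapping groups. Dnajb1 was lower with noise without overlap, at 867.1 and 836.2 on control and 711.1 and 601.6 on noise arrays. Its change was -0.38 ± 0.18 (adjusted p = 1; unadjusted p = 0.0612). Hsp90aa1 likewise did not overlap, at 9482.7 and 9068.9 on control and 8376.8 and 7638.6 on noise arrays (-0.20 ± 0.20). These were 2 of 8 members lower without overlap, against 13.8% of all probe sets, and no member was higher without overlap (15.8% of all).

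Over the 8 members in B6.CAST, 3 changes were positive and 5 negative, against 51.1% positive over all probe sets, and 0 of the 8 had an unadjusted p under 0.05 in limma (2.10% of all). The median was 0.01 for the inducible members and the constitutive members were at -0.10 and -0.03.

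**Figure D2:**
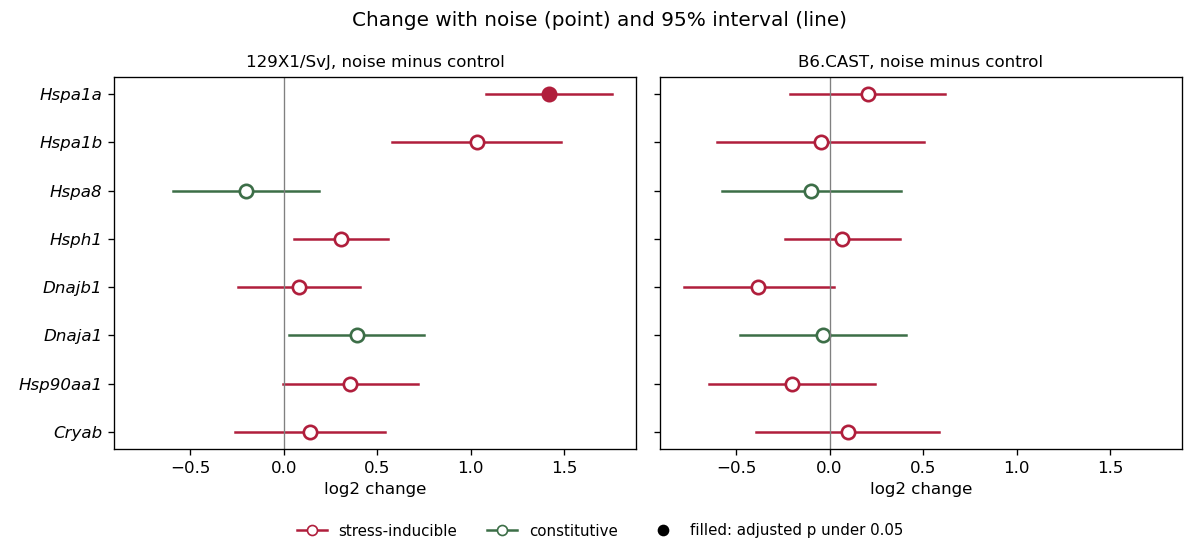
Change with noise on the log2 scale (points) with its 95% interval from the limma fit (lines) for the 8 tested members in 129X1/SvJ (left) and B6.CAST (right), red for stress-inducible and green for constitutive members, filled where adjusted p is under 0.05. Hspa1a in 129X1/SvJ, at 1.42, is the one filled point, and all 8 intervals in B6.CAST include 0.

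Whether the strains responded differently was tested as the difference of their noise effects. No member passed, and none of all 8695 probe sets did in limma (0%), while 2.97% had an unadjusted p under 0.05. For Hspa1a the difference, B6.CAST minus 129X1/SvJ, was -1.21 ± 0.24 (unadjusted p = 0.000377, adjusted p = 0.997; 95% interval -1.75 to -0.68). It ranked 3 of 8695 by p-value, and it lay between -1.48 and -0.95 on leaving out any 1 array. The difference of Hspa1b was -1.08 ± 0.33 (unadjusted p = 0.00667, adjusted p = 0.997) and ranked 20.

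The other members differed less. Hsp90aa1 was at -0.56 ± 0.26, Dnajb1 at -0.46 ± 0.24, Dnaja1 at -0.43 ± 0.26 and Hsph1 at -0.24 ± 0.18. Each of these 4 had a 95% interval that included 0, and so had Cryab (-0.04 ± 0.29) and Hspa8 (0.11 ± 0.28). Of the 8 members 7 were negative, with a median of -0.44, against 57.4% of all probe sets positive and a median of 0.06. Each value is the strain difference after noise minus that in controls. For Dnajb1, Dnaja1 and Hsph1 the estimated strain difference was larger in controls (0.40, 0.37 and 0.28) than after noise (-0.06, -0.06 and 0.04). None of these estimates passed. For Hspa1a the estimate was larger after noise (-1.10, which passed) than in controls (0.11, which did not). Hspa1b was at 0.65 in controls and -0.43 after noise, and neither passed. The noise effects of the strains come from separate arrays but share 1 estimate of the spread.

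Averaged over both strains, Hspa1a rose by 0.81 ± 0.12 (5 noise and 5 control arrays; limma adjusted p = 0.0115), where 0.414% of all probe sets passed as higher. This call was lost without the first B6.CAST control array (0.78, adjusted p = 0.0759) or the first B6.CAST noise array (0.68, adjusted p = 0.0848), and without the arrays with raised Gapdh ratios (0.69, adjusted p = 0.225). Hspa1b was at 0.49 ± 0.16 (adjusted p = 0.456), and the other 6 members lay between -0.15 and 0.19. Of the 8 members, 6 were positive (47.0% of all) and 2 had an unadjusted p under 0.05 (7.63% of all).

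Between the strains after noise, 1 of the 8 members passed, Hspa1a. Its difference was -1.10 ± 0.17, with the 2 B6.CAST arrays below the 3 arrays of 129X1/SvJ (adjusted p = 0.0101), where 1.45% of all probe sets were called and 0.575% as lower. Without the second B6.CAST noise array it was -0.84 and did not pass (adjusted p = 0.156), and without the first it was -1.36. The call was also lost in a fit of only these 5 arrays (adjusted p = 0.0666). This comparison uses the same noise arrays as the noise effects above. Hspa1b was at -0.43 ± 0.23 (adjusted p = 0.582), with B6.CAST below 129X1/SvJ on every array, so that 2 of 8 members were lower without overlap, against 12.1% of all probe sets. Cryab was at 0.55 ± 0.20 in the other direction (adjusted p = 0.327), again without overlap (13.2% of all probe sets were higher in that way). The remaining 5 members lay between -0.21 and 0.04, and 3 of the 8 were positive, against 52.4% of all. An unadjusted p under 0.05 was found for 2 members, against 10.6% of all.

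In control mice no member passed, while 0.920% of all probe sets did. All 6 inducible members had a higher estimate in B6.CAST, with a median of 0.38 against -0.05 over all probe sets, and 43.6% of all probe sets were positive. This comparison uses the same control arrays of 129X1/SvJ as the noise effects in that strain. Low values on those arrays raise both estimates, so the positive signs in both are not separate findings. Hspa1b was at 0.65 ± 0.23 (adjusted p = 0.315), Cryab at 0.59 ± 0.20 (adjusted p = 0.299), Dnajb1 at 0.40 ± 0.17 (adjusted p = 0.395) and Hsph1 at 0.28 ± 0.13 (adjusted p = 0.443). In each of these 4 genes both B6.CAST control arrays exceeded all 3 control arrays of 129X1/SvJ. On the normalized scale Hspa1a also did not overlap (0.11 ± 0.17), although its deposited signals did. This made 5 of 8 members higher without overlap, against 13.9% of all probe sets, and 4 of 8 had an unadjusted p under 0.05, against 11.1%. No member was lower without overlap (16% of all). Hsp90aa1 (0.35 ± 0.19) and the constitutive Dnaja1 (0.37 ± 0.18) overlapped between strains, and Hspa8 was at -0.10 ± 0.20.

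The control levels of Hspa1b rested partly on the third control array of 129X1/SvJ, which at 370.1 was the lowest of 10. Without it the strain difference in controls was 0.42 for Hspa1b and 0.42 for Cryab, and the latter was 0.37 without the first B6.CAST control array. Cryab is also a gene of muscle and lens. Of 14 muscle markers, all on the array, the summed signal was 8949.9 to 13484.7 in control 129X1/SvJ and 8270.7 to 12165.9 in control B6.CAST. Most of this sum was Pvalb, and the mean log2 deviation of the list ranged from -0.61 to 0.86 over the 2 control arrays of B6.CAST. The 6 lens markers on the array of 10 summed to 459.9 to 660.6 and 447.1 to 471.3, with Mip and Cryba1 at most 14.4 on any array. Of 9 Schwann cell markers, 5 were on the array and summed to 14769.0 to 15920.9 in control 129X1/SvJ and to 11274.1 to 12074.1 in control B6.CAST. Of the 18 cochlear markers the sums were 71960.4 to 80306.8 and 89148.4 to 90960.1. Bright genes such as Coch and Gjb2 weigh most in these sums. The mean log2 deviations of the cochlear list overlapped, at -0.06 to 0.07 and 0.01 to 0.10. The part of these 4 lists in the strain differences of the members was not tested.

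**Figure D3:**
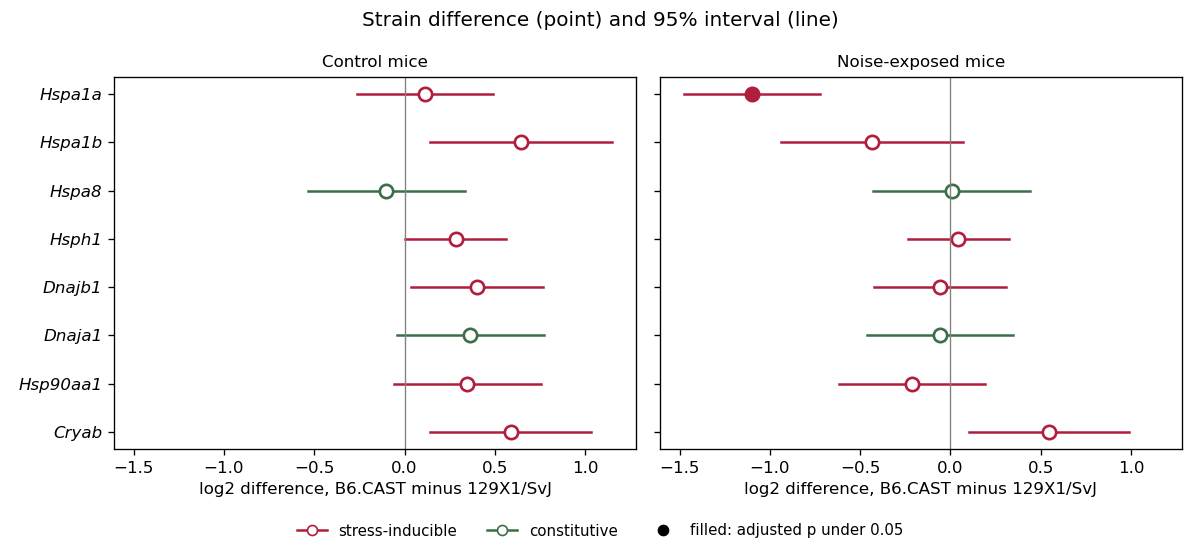
Strain difference on the log2 scale, B6.CAST minus 129X1/SvJ (points), with its 95% interval (lines), in control mice (left) and noise-exposed mice (right), red for stress-inducible and green for constitutive members, filled where adjusted p is under 0.05. Hspa1a goes from 0.11 in controls to -1.10 after noise, while Cryab is at 0.59 and 0.55.

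Across the 4 groups the order of levels differed between the members. Hspa1a averaged 803 ± 28 in control and 2126 ± 61 in noise-exposed 129X1/SvJ (SD, n = 3). In B6.CAST it averaged 859 ± 64 in control and 1019 ± 282 in noise-exposed mice (SD, n = 2). The 3 lower groups could not be separated beyond their spread, and noise-exposed 129X1/SvJ stood above them. Hspa1b had its lowest group mean in control 129X1/SvJ (538 ± 150), its highest in noise-exposed 129X1/SvJ (1065 ± 126) and both B6.CAST groups between (821 ± 124 and 793 ± 69). The bright probe set of Cryab was ordered by strain, at 764 ± 153 and 815 ± 80 in 129X1/SvJ against 1127 ± 229 and 1211 ± 62 in B6.CAST. Noise made no difference to it beyond the spread within either strain. Hspa8 varied least between group means by ratio, from 4408 ± 612 to 5123 ± 848, within the spread of its groups.

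The 3 member probe sets that were too dim to be tested give no usable measure of their genes. That of Hspb1, the inducible small heat shock protein, lay between 2.6 and 26.4 on all 10 arrays, below the filter throughout. The second probe sets of Hsp90aa1 (4.0 to 46.8) and of Cryab (5.5 to 48.2) were each below it on 9 of 10 arrays, with the highest value on the first noise array of 129X1/SvJ. Hsp90aa1 and Cryab had bright first probe sets, so the low values alone do not show that the genes were silent. The bright probe set of Cryab may match related sequences, so the level of this gene is less certain. Fitted without a filter, none of the 3 passed for noise in 129X1/SvJ, with Hspb1 at -0.54 ± 0.34 (adjusted p = 0.618).

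Other chaperone genes gave no call in any of the 6 comparisons. Of 34 further cytosolic chaperones and co-chaperones, 25 were on the array and 24 tested, and 0 passed in either direction in limma. For noise in 129X1/SvJ, 13 of the 24 were positive (45.0% of all probe sets), with a median of 0.09 (-0.04 over all). An unadjusted p under 0.05 was found for 2 of 24, against 11.5% of all probe sets. The genes of smallest p were Hspb8, a small heat shock protein that works with Bag3 (0.62 ± 0.19, adjusted p = 0.270), and the J-domain gene Dnajb6 (0.36 ± 0.13, adjusted p = 0.371). Hspb8 gave 1333.3, 1481.6 and 1086.6 on control and 2508.4, 1618.0 and 1821.6 on noise arrays, without overlap and highest on the first noise array. In B6.CAST the median was -0.02, 11 of 24 were positive (51.1% of all) and 0 had an unadjusted p under 0.05 (2.10% of all), with Dnajb6 at 0.31 ± 0.16 and Stip1, which links Hsp70 to Hsp90, at -0.51 ± 0.25. Stip1 had the smallest p of the list for the difference of noise effects (-0.71 ± 0.32, unadjusted p = 0.0472, adjusted p = 0.997). Between the control strains, Hspa4l, a relative of Hsph1, was at 0.41 ± 0.18 (adjusted p = 0.430) and the small heat shock protein gene Hspb2 at -0.43 ± 0.19 (adjusted p = 0.448). After noise, Chordc1, a co-chaperone of Hsp90, was at 0.62 ± 0.27 (adjusted p = 0.424) and Stip1 at -0.51 ± 0.23 (adjusted p = 0.435).

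The heat shock factor Hsf2 had a higher estimate in B6.CAST. Its signal was between 8.0 and 67.2 on the 6 arrays of 129X1/SvJ and between 89.7 and 174.8 on the 4 arrays of B6.CAST, with no overlap. In 129X1/SvJ 4 of the 6 arrays were below the filter signal of 42.9, so Hsf2 passed the filter through B6.CAST and its differences are taken against a group near background. The fitted strain difference was 1.73 ± 0.51 in control mice (adjusted p = 0.211) and 1.65 ± 0.51 after noise (adjusted p = 0.203), and neither passed. With noise its change was -0.13 ± 0.45 (129X1/SvJ) and -0.21 ± 0.55 (B6.CAST). Hsbp1, which binds and restrains HSF1, was at -0.22 ± 0.14 and 0.01 ± 0.17.

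All 8 subunits of the cytosolic chaperonin TRiC, which folds actin and tubulin, were tested, and 0 passed in any comparison. Their median with noise was -0.06 for 129X1/SvJ against -0.12 for B6.CAST. The lowest was Cct2 in 129X1/SvJ at -0.53 ± 0.21 (unadjusted p = 0.0273, adjusted p = 0.396). Of the 5 tested mitochondrial chaperones, 0 passed and 0 had an unadjusted p under 0.05 in any comparison, with medians of -0.06 and 0.01. Grpel1, the nucleotide exchange factor of mitochondrial Hsp70, was lowest with noise at -0.37 ± 0.25 in 129X1/SvJ.

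**Figure D4:**
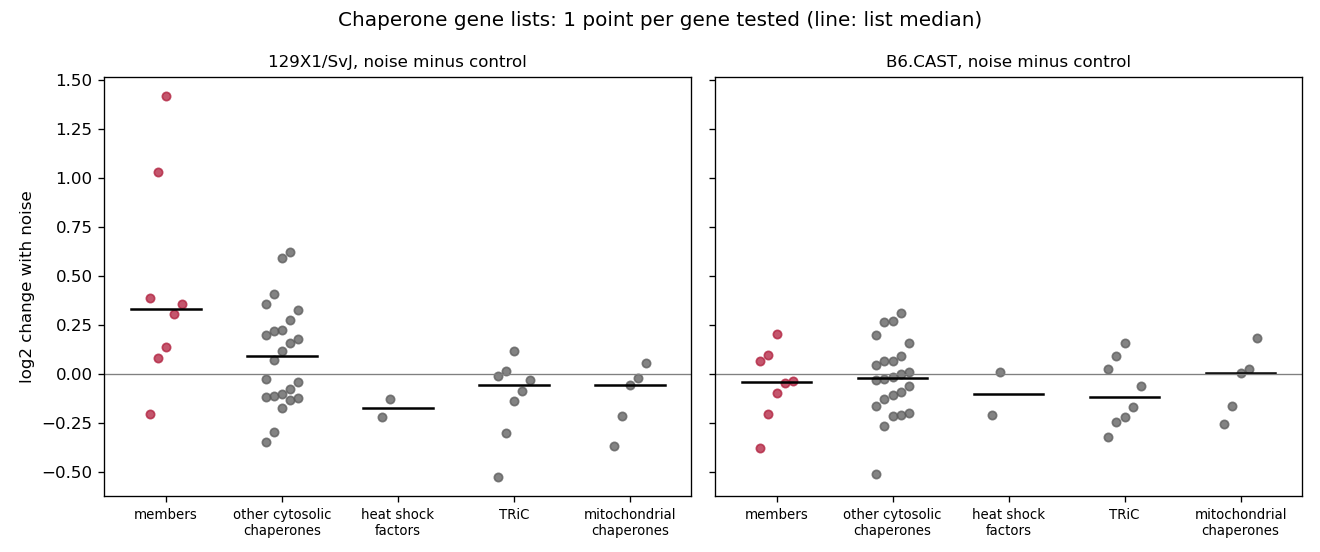
Change with noise on the log2 scale for the 8 tested members (red) and for the other chaperone lists (grey), 1 point per gene and the list median as a line, in 129X1/SvJ (left) and B6.CAST (right). Hspa1a (1.42) and Hspa1b (1.03) are the highest points on the left, above Hspb8 (0.62), and no gene exceeds 0.31 on the right.

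By correlation over the 10 arrays, the genes most like Hspa1a were not other chaperones. Of the 7860 named probe sets compared, the closest genes were Gadd45b, a stress gene (r = 0.975), Csn3, a casein gene (r = 0.961), Zfp36l2, an mRNA decay factor (r = 0.948), Bcl10, an adaptor upstream of NF-kappaB (r = 0.946), and the chemokine gene Cxcl1 (r = 0.946). Since Hspa1a was high on the noise arrays of 129X1/SvJ, genes high on those arrays were the ones this choice could find. Csn3 lay at or below 48.8 on the other 7 arrays and Cxcl1 at or below 14.4 on all control arrays, near or below the filter signal. Zfp36l2 was at 3277.7, 2472.7 and 2781.0 there and at 1710.5 or below elsewhere. The other members followed Hspa1a less closely, with r = 0.740 for Hspa1b, 0.523 for Hsph1, 0.451 for Dnaja1, 0.426 for Hsp90aa1, -0.06 for Dnajb1, -0.21 for Cryab and -0.31 for Hspa8. These correlations describe 10 arrays that share 4 groups, and Hspa1a differs between arrays mainly as 1 group against the rest.

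The immediate early list was higher with noise without overlap in both strains. All 14 immediate early genes listed were on the array, and their summed signal was 9007.5 to 9697.1 in control and 23934.8 to 43928.6 in noise-exposed 129X1/SvJ, against 7726.0 to 7793.6 and 12532.4 to 17226.0 in B6.CAST. On the log2 scale the list lay 0.87 to 2.02 above its average over the 10 arrays on the noise arrays of 129X1/SvJ. Hspa1a was at 11.09, 11.12 and 11.03 on the log2 scale on these arrays. The list includes Gadd45b, the gene most correlated with Hspa1a. The 13 neutrophil markers, all on the array, summed to 3729.9 to 22080.0 in control and 13126.3 to 39229.0 in noise-exposed 129X1/SvJ, with overlap, and to 6198.5 to 20880.9 and 2488.0 to 2761.5 in B6.CAST. None of the defining markers was at 0. The 7 erythroid markers on the array of 10 overlapped between the groups of 129X1/SvJ, at 13026.3 to 32845.2 and 22398.5 to 36447.1. In B6.CAST they summed to 9945.5 to 24952.3 in control and 7140.8 to 10356.8 in noise-exposed mice. Among the noise arrays, which also give the strain difference of Hspa1a, the neutrophil, erythroid and immediate early sums were higher in 129X1/SvJ without overlap. The cochlear sums were lower there without overlap (61883.4 to 71968.7 against 85308.8 to 88266.6 in B6.CAST). The mean log2 deviations of the cochlear list overlapped on these arrays (-0.26 to 0.05 against -0.01 to 0.07). The 18 cochlear markers summed to 71960.4 to 80306.8 in control and 61883.4 to 71968.7 in noise-exposed 129X1/SvJ, with a narrow overlap, and the Schwann cell sums overlapped at 14769.0 to 15920.9 and 14135.9 to 15214.1. The part of these lists in the members' values was not tested.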

How the data were processed

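Cochlear RNA of 10 pools of mice was labelled with biotin and hybridised to one-colour Affymetrix arrays, per the labels' protocols. The authors deposited linear signal intensity per probe set, already scaled: the mean after trimming 2% at each end lay between 500.268 and 500.304 on all arrays. Their software is not given in the sources used here. Other samples' columns numbered 0. Of 12488 probe sets, 66 were controls, 10855 had 1 gene symbol in the platform annotation, 396 had several and 1237 had none. The number of arrays limits the precision.

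From these values log2(intensity + 16) was quantile normalized, the lowest 30% of probe sets were left out, and 4 group means were fitted in limma 3.58.1 (R 4.3.3) with a variance trend. The fit was tested on simulated data. The members, gene lists, tests and the rule for named genes were chosen with earlier results of these data known. The rule names every member in every comparison, and of the other lists the called genes and those of smallest p (up to 2 a list and comparison), together with the 5 genes most correlated with Hspa1a. The brightest probe set stood for a gene outside the members. Promoters came from RefSeq (GRCm38.p6). Alternatives covered the scaling, pseudocount, filter, variance trend, array weights, arrays in the fit, the replicate number as a block and the threshold.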

Additional observations from a re-analysis of the deposited data

How the results depend on the processing

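Over the 8 members and 6 comparisons, leaving out any 1 array left 454 values with the same direction and side of the threshold, 3 no longer past it and 23 with the other sign, and the other alternatives left 498 the same, 4 weaker, 2 stronger and 8 with the other sign. No reversed value had passed. The cause was not tested, except that fewer arrays or probe sets enter some fits. The rise of Hspa1a with noise in 129X1/SvJ passed under every alternative run. Its rise over both strains was lost with the replicate block (0.81, adjusted p = 0.061) and without the arrays with raised Gapdh ratios (0.69, adjusted p = 0.225). Its strain difference after noise was lost when only the arrays compared entered the fit (-1.10, adjusted p = 0.0666) and with the replicate block (-1.11, adjusted p = 0.067). Hspa1b passed with noise in 129X1/SvJ with array weights (adjusted p = 0.0376) and at a threshold of 0.10.

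Counts of members called for noise in 129X1/SvJ went from 1 to 2 with array weights and to 2 at adjusted p under 0.10. Over both strains they went from 1 to 0 with the replicate block and to 0 without the arrays with raised Gapdh ratios. For the strain difference after noise they went from 1 to 0 with only the arrays compared and to 0 with the replicate block. Leaving out 1 array gave 1 to 1 members for noise in 129X1/SvJ, 0 to 1 over both strains and 0 to 1 for the strain difference after noise. The replicate block used the array number as a term. Arrays of the same number did not deviate together (r from -0.39 to 0.14 over 13 pairs, 2 of them above 0.1, median -0.15), and array numbers carry no pairing in the labels.

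Counts over all probe sets moved as follows. For noise in 129X1/SvJ, 44 became 71 with array weights, 22 without the arrays with raised Gapdh ratios and 68 at 0.10, and 22 to 46 with 1 array left out. For noise in B6.CAST, 4 became 2 with pseudocount 1, 2 with pseudocount 64, 2 with the replicate block, 1 with no filter, 0 with no variance trend, 0 with only the arrays compared, 0 without the arrays with raised Gapdh ratios and 7 with array weights, and 0 to 5 with 1 array left out. Over both strains, 40 became 10 without the arrays with raised Gapdh ratios and 18 to 47 with 1 array left out. For controls, 80 became 139 with array weights, 151 with only the arrays compared, 34 with the replicate block, 36 without the arrays with raised Gapdh ratios and 131 at 0.10, and 23 to 132 with 1 array left out. After noise, 126 became 192 with array weights, 55 with only the arrays compared, 44 with the replicate block, 26 without the arrays with raised Gapdh ratios and 201 at 0.10, and 26 to 122 with 1 array left out. Fits of only the arrays compared could not be made for the mean and the difference of noise effects, which use all arrays.

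Without the arrays with raised Gapdh ratios the sign turned for noise in B6.CAST in Hspa1a (-0.062) and Hsph1 (-0.040), for the difference of noise effects in Hspa8 (-0.047) and for the strain difference after noise in Hspa8 (-0.070) and Hsph1 (-0.062). This fit left 1 B6.CAST noise array. Leaving out noise array 1 of B6.CAST alone gave the same values for noise in B6.CAST in Hspa1a and Hsph1. A part of the Gapdh ratio thus cannot be told apart from that of fewer arrays. Hspa8 after noise also turned with array weights (-0.007) and the replicate block (-0.018), and Cryab turned in the difference of noise effects without quantile normalization (0.008).

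With 1 array left out, values that turned sign ranged as follows. For noise in B6.CAST, Hspa1a ranged from -0.062 to 0.469, Hspa1b from -0.206 to 0.110, Hspa8 from -0.348 to 0.155, Hsph1 from -0.040 to 0.178, Dnaja1 from -0.197 to 0.128 and Cryab from -0.122 to 0.317. For noise in 129X1/SvJ, Cryab ranged from -0.025 to 0.239, and over both strains Hsp90aa1 from -0.001 to 0.159. In the difference of noise effects, Cryab ranged from -0.261 to 0.176 and Hspa8 from -0.141 to 0.358. Hspa8 ranged from -0.351 to 0.151 between control strains. After noise, strain differences ranged from -0.080 to 0.124 for Hspa8, -0.063 to 0.154 for Hsph1, -0.186 to 0.069 for Dnajb1 and -0.181 to 0.064 for Dnaja1. Groups of 2 or 3 arrays limit what these fits can show, and dim probe sets (Hspb1) give no usable level.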
